A study of Mus musculus with 9 samples.

Results

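CD144+CD45+ cells, called HSPC here, were set against CD144-CD45+ cells, called HC, across all genes measured in cells sorted from the aorta-gonad-mesonephros (AGM) of C57Bl6 mice at E11.5, an age in days of embryonic development. Samples were chosen by their sort label, which gave 3 HSPC arrays and 3 HC arrays, 6 of the 9 arrays of the study. The other 3 arrays hold CD144+CD45- endothelial cells (EC), whose levels are given beside the HSPC and HC levels where they help to place them. Genes were all probe sets with exactly 1 gene symbol, 20405 of 21115. All 3 populations came from the same strain, age and region with no other treatment named, and the sort gate is the only difference that the labels name. A gate on CD45 takes in every kind of white blood cell of the region, so HC is a mixture, and the labels name no marker that would separate stem cells from other CD144+CD45+ cells.

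Definitive blood stem cells first form in the AGM, midway through gestation. They arise in the wall of the dorsal aorta from specialised endothelial cells, which lose their vessel programme and take up a blood programme step by step. CD144, or VE-cadherin, is the adhesion protein that joins endothelial cells to each other and stays for a time on newly formed blood cells, whereas CD45 is a phosphatase on the surface of nearly all white blood cells and their progenitors. By this age the region also holds blood cells of earlier origin, among them tissue macrophages and early granulocytes derived from the yolk sac.

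The genes behind the sort were checked first. Cdh5, which encodes CD144, had log2 values of 11.11, 9.76 and 10.54 on HSPC replicates 1, 2 and 3 and of 6.36, 5.93 and 5.09 on HC replicates 1, 2 and 3. Ptprc, which encodes CD45, had values of 8.62, 9.13 and 8.93 in HSPC and 9.87, 10.06 and 9.92 in HC, against 4.42 on average in EC. Both genes therefore followed the labels: Cdh5 was higher in HSPC without overlap, by 4.68 (SE 0.37, adjusted p = 0.000141), and Ptprc was high in both populations and lower in HSPC by -1.06. Because these 2 proteins defined the gates, their differences check the labels and are no finding.

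Values are the authors' log2 RMA expression values, a scale on which 1 unit is a doubling, and each difference below is the HSPC mean minus the HC mean from limma, with its standard error (SE) and a p-value adjusted over all 20405 genes (Benjamini-Hochberg, threshold 0.05). Array medians lay between 5.41 and 5.51, and the median standard deviation of a gene over 3 arrays was 0.114 in HSPC and 0.110 in HC. The 1289 olfactory and vomeronasal receptor genes, which these cells are not known to use, had a 95th percentile of 4.69, taken as the background level. Where the lower population's mean was at or under it, the fold is given as "at least", with the lower population set to 4.69 or its own value, whichever was higher on each array. At 46.6% of the genes 1 value stands on 2 or more of the 9 arrays to the last deposited digit. Examples below are Spn and Ikzf2 in HC and Hoxa9 in EC, and such arrays show no spread of their own. No label tells if replicates of a population were drawn from different embryos, and the p-values rest on the variation among these arrays, part or all of which may be technical.

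The 3 HSPC arrays were not alike. HSPC replicate 1 stood nearest to the vessel end and replicate 2 nearest to the blood end: over the 33 measured genes of endothelial identity, the median difference from the HC mean was 3.49, 2.34 and 2.98 on HSPC replicates 1, 2 and 3, and over the 27 of macrophage identity it was -2.34, -0.82 and -1.57. Correlation across genes was 0.985 to 0.992 between HSPC arrays, 0.992 to 0.994 between HC arrays and 0.952 to 0.979 between HSPC and HC arrays. Genes are not independent replicates, and these values only describe the arrays.

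HSPC differed from HC at 2983 genes, 14.6% of those tested, of which 1431 (7.01%) were higher and 1552 (7.61%) lower in HSPC. A difference of at least 2-fold was reached by 931 of them, 452 higher and 479 lower. The 3 arrays of one population did not overlap with the 3 of the other at 29.6% of all genes. The median difference over all genes was -0.03. The counts of gene lists and families below are read against these shares. Genes for vessel walls, for blood stem cell regulators, for Hox proteins and for imprinted growth regulators stood among the higher genes, and genes for granules, phagocytosis and inflammation among the lower ones.

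**Figure D1:**
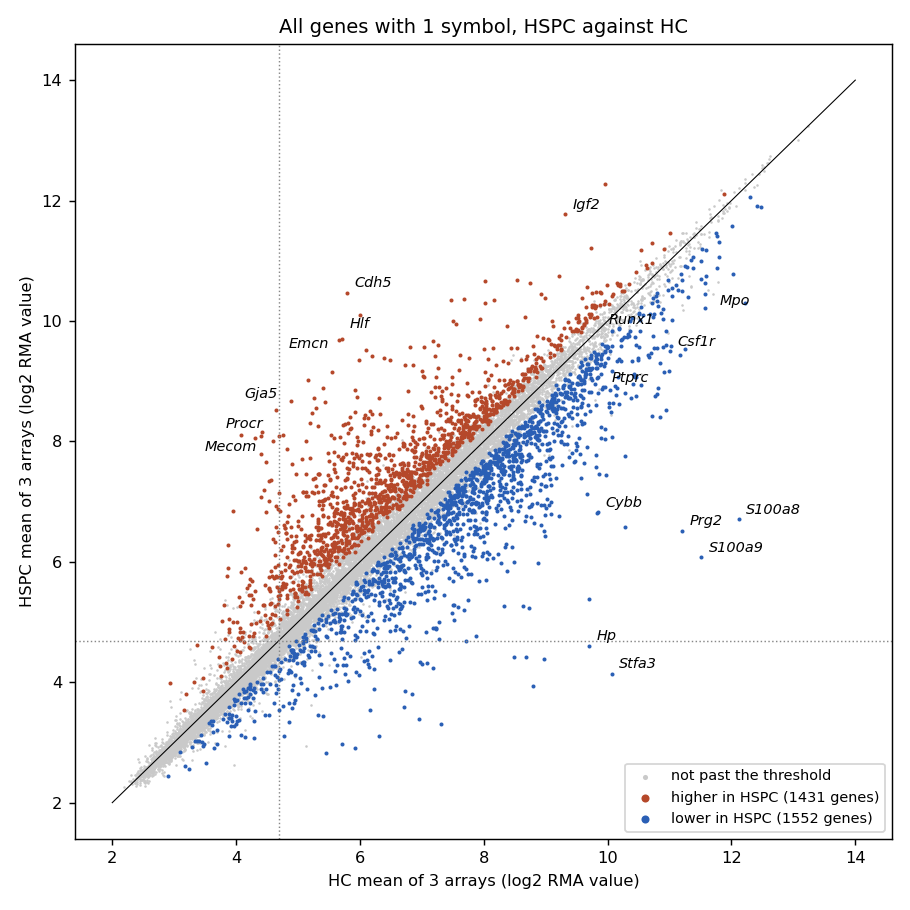
Mean log2 value of each of the 20405 genes in HC (x axis) and HSPC (y axis), with the 1431 genes higher and 1552 lower in HSPC coloured, the line of equality, and dotted lines at the background level of 4.69. S100a8, S100a9 and Prg2 lie far below the line, and Cdh5, Hlf and Emcn far above it.

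The late neutrophil granule list held the largest decreases. Of 23 measured genes, 17 were lower in HSPC and 0 higher, with a median difference of -2.48. Stfa3, a stefin that inhibits cysteine proteases, had values of 3.89, 3.78 and 4.76 on the HSPC arrays and 9.97, 10.27 and 9.95 on the HC arrays, a difference of -5.92 (SE 0.33, adjusted p = 2.44e-05), or at least 40.8-fold lower. S100a8, which forms the antimicrobial calcium-binding pair calprotectin with S100a9, had values of 7.17, 5.92 and 7.02 in HSPC and 12.13, 12.29 and 11.94 in HC. S100a9 had values of 7.07, 4.77 and 6.39 and 11.49, 11.74 and 11.31 on the same arrays. For all 3 genes every HSPC array lay below every HC array, and S100a8 and S100a9 were 42.7-fold and 43.3-fold lower, with adjusted p of 0.00085 and 0.00137.

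Secondary granule genes followed the same order. Lcn2, an iron-siderophore-binding lipocalin, was at 3.92, 3.94 and 3.93 in HSPC and 8.85, 8.91 and 8.60 in HC, and was at least 17.1-fold lower (adjusted p = 3.08e-08). Hp, which encodes haptoglobin, was at least 32.3-fold lower, and Olfm4 at least 19.4-fold lower. Camp, the cathelicidin precursor, was at 5.24, 5.28 and 5.64 in HSPC and 9.81, 10.00 and 9.31 in HC. Ngp, a neutrophil granule protein, was at 4.23, 4.64 and 4.39 and 8.60, 9.11 and 8.35. The HSPC values of Camp and Ngp were close to their EC means of 5.41 and 4.31. Cebpe, the factor that drives the switch to secondary granules, was also lower, by -1.88 (SE 0.12, adjusted p = 5.97e-05), with HSPC and EC means of 5.75 and 5.52. The median difference of the list from the HC mean was -2.60, -2.56 and -2.50 on HSPC replicates 1, 2 and 3. HSPC means of 12 of the 23 genes were at background, where arrays cannot differ much, and S100a8 and S100a9, above it, differed between the HSPC arrays. The 6 genes that did not pass included Ly6g (3.23 and 3.48), Chil3 (3.85 and 3.73) and Mmp9 (5.33 and 5.62, HSPC and HC means), and Stfa2l1, with means of 2.94 and 5.13, had an adjusted p of 0.112. In bulk RNA, fewer cells of a type and less RNA per cell cannot be told apart, here and in every cell type list below.

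The start sites of these genes are shown for 4 members, with capitals on each match to TTGCNNAA, a core site of C/EBP factors, which drive granule genes. The windows run from 250 bases before to 50 bases after the RefSeq start (GRCm38.p6), 5′ to 3′ on the gene's strand, and matches were counted on both strands.
S100a9, chr3:90695672-90695971, minus strand: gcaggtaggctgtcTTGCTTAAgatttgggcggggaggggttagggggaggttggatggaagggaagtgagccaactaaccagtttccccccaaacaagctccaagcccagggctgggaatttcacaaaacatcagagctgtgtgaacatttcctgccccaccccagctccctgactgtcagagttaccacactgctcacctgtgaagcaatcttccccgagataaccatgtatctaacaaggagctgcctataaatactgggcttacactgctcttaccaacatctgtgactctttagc
Ngp, chr9:110419558-110419857, plus strand: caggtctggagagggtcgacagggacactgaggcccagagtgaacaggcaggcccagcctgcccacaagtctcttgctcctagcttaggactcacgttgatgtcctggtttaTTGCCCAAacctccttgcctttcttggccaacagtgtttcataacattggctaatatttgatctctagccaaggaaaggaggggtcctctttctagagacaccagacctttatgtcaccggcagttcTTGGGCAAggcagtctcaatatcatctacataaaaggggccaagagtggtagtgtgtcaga
Ltf, chr9:111019042-111019341, plus strand: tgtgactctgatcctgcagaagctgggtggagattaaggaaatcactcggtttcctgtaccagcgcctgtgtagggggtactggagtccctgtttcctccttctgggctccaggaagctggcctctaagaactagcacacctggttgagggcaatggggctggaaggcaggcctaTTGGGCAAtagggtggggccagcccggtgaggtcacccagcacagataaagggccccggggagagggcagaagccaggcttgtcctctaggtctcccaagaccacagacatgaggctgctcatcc
Lcn2, chr2:32387690-32387989, minus strand: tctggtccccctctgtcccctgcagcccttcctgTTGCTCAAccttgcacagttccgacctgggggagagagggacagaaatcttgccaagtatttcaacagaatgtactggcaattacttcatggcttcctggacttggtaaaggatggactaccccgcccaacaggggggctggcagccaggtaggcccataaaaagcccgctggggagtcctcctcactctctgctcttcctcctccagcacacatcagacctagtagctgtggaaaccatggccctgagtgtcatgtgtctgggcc
S100a9, Ltf and Lcn2 held 1 match each and Ngp held 2. A match was present in 8 of the 19 promoters of the late neutrophil list that were in the RefSeq table, against 9.79% of the 15803 tested genes with a promoter and 10.8% of all 27025. Among genes lower in HSPC the share was 10.5%, and among genes higher in HSPC 5.93%. The motif GAGGAAGT, a site of the myeloid factor PU.1, was in 5.99% of lower genes, 2.57% of higher genes and 2.75% of tested genes, and in 5 of the 19. Another pair of motifs was searched. The RUNX motif TGTGGT was in 17.2% of lower, 10.8% of higher and 14.3% of tested genes, and in 6 of the 19. The ETS motif CCGGAAGT, which shares its last 6 letters with the PU.1 motif, was in 5.91%, 2.92% and 5.54%, and in 0 of the 19. These are matches of letters in 300 bases, not measured binding sites.

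Stfa3 and Stfa2 belong to the stefin A cluster, small protease inhibitor genes that neighbour each other in the RefSeq gene table. Of 7 members measured, 5 were lower in HSPC. Csta3 had values of 3.41, 3.57 and 3.18 in HSPC and 6.92, 7.32 and 6.61 in HC (at least 4.79-fold lower), and Csta2 was at least 1.69-fold lower (adjusted p = 0.00503). Cstdc6, at a mean of 4.15 in HC, was under background in both populations, and its call did not hold throughout: adjusted p was 0.146, 0.0699 and 0.103 with HSPC replicates 1, 2 and 3 left out in turn, 0.123 and 0.127 with HC replicates 1 and 2 left out in turn and 0.0607, 0.0624 and 0.0726 with EC replicates 1, 2 and 3 left out in turn. Csta1 was at background in both populations, with means of 2.66 and 2.84. Members of this cluster are close copies of each other and can share probe sequence, so values of single members are uncertain.

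Genes of primary granules, made earlier in the granulocyte line, and of myeloid progenitors were counted in 1 list. Of 21 measured genes, 18 were lower and 0 higher, with a median of -1.64. HSPC means of 2 of the 21 were at background. Mpo, the myeloperoxidase gene, had values of 9.85, 10.88 and 10.60 in HSPC, 11.78, 11.75 and 11.57 in HC and 6.43, 4.98 and 5.15 in EC. Its arrays did not overlap between HSPC and HC, yet its difference of -1.26 had an adjusted p of 0.0589. Ms4a3, a marker of granulocyte-monocyte progenitors, had values of 4.82, 4.59 and 4.67 in HSPC and 8.02, 7.75 and 7.35 in HC and was 8.08-fold lower. Plac8 was 13-fold lower, Hdc, which makes histamine, 11.4-fold lower, and the inhibitory lectin Clec12a 8.34-fold lower, with adjusted p from 5.51e-06 to 0.000126. Csf2rb, the receptor chain shared by Il-3, Il-5 and Gm-csf, was at 6.74 in HSPC and 8.76 in HC, a difference of -2.02 (SE 0.22, adjusted p = 0.000619).

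Granule proteins of eosinophils were among the strongest decreases, whereas the mast cell proteases Cma1, Mcpt4 and Tpsb2 were at background in both populations. Prg2, the major basic protein of eosinophils, had values of 7.06, 4.81 and 7.67 in HSPC and a mean of 11.20 ± 0.22 (SD, n = 3) in HC. The HSPC replicates were spread widely and all lay under HC. It was lower by -4.69 (SE 0.60, adjusted p = 0.00125). Prg3 was 10.3-fold lower, Ear6, an eosinophil-associated ribonuclease, at least 13.3-fold lower, and Epx, the eosinophil peroxidase, at least 5.25-fold lower. In all, 8 of 17 genes of this list were lower and 0 higher. Of the mast cell genes, Cma1 had means of 3.71 and 3.70, Mcpt4 3.43 and 3.53, and Tpsb2 4.63 and 4.67 in HSPC and HC.

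Macrophage genes were lower in HSPC but far from absent. Of 27 measured genes of macrophage identity, 20 were lower, with a median of -1.55, and 1 was higher. The count of 20 fell to 13 without HC replicate 2 and to 11 without HC replicate 3. Ms4a6c, a membrane protein of macrophages, had values of 6.25, 7.97 and 7.15 in HSPC and 9.34, 10.09 and 9.57 in HC and was lower by -2.54 (SE 0.39, adjusted p = 0.0031). Ms4a4a was 5.55-fold lower and Cd14, the co-receptor for bacterial lipopolysaccharide, 4.27-fold lower. Csf1r, the receptor on which most macrophages depend, was at 8.70, 10.19 and 9.62 in HSPC and 10.94, 11.01 and 11.06 in HC, against 4.93 in EC. Its difference was -1.50 (SE 0.32, adjusted p = 0.0134), with an adjusted p of 0.0514 with HC replicate 3 left out. Timd4, the phosphatidylserine receptor of resident macrophages, ran the other way, with values of 7.32, 8.70 and 7.64 in HSPC and 6.29, 6.15 and 6.43 in HC, 3.02-fold higher (adjusted p = 0.00737). Folr2 (6.44 and 6.45) and Pf4 (9.81 and 10.97) had HSPC and HC means with adjusted p of 0.99 and 0.345.

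The Ms4a family as a whole, 20 genes of tetraspanning membrane proteins, had 8 lower and 0 higher members. Beside Ms4a3, Ms4a6c and Ms4a4a these were Ms4a7 (-2.01), Ms4a6b (-1.92), Ms4a6d (-1.81), Ms4a4c (at least 1.07-fold lower, with HSPC at background) and Ms4a14 (-0.70), the last at background in both populations. These genes too can share probe sequence. The median over all 20 was -0.16, since many members were at background.

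Receptors and enzymes of phagocytosis were lower with the macrophage genes. Of 23 measured complement and scavenger receptor genes, 10 were lower and 1 higher, and 6 were lower without any 1 of the 3 HC arrays. Itgam, the alpha chain of complement receptor 3, was at 6.69, 7.48 and 6.75 in HSPC and 8.74, 8.91 and 8.94 in HC (3.71-fold lower, adjusted p = 0.000448), and its partner Itgb2 was 2.17-fold lower. The exception was Stab2, a hyaluronan scavenger receptor of sinusoidal endothelium, which was higher by 0.79 (SE 0.16, adjusted p = 0.011) and had its highest mean, 7.59, in EC. C1qc, a subunit of complement C1q, had means of 10.65 in HSPC and 11.78 in HC with an adjusted p of 0.101.

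Of 24 genes of Fc receptors and ITAM signalling, which passes antibody binding to kinases, 16 were lower and 0 higher. Fcgr1, the high-affinity IgG receptor, was lower by -1.97 (SE 0.37, adjusted p = 0.00863), Fcgr2b, the inhibitory one, was at least 2.59-fold lower, and the adaptor Blnk was at least 2.74-fold lower. The kinases Syk (-0.15) and Btk (-0.53) and the phospholipase Plcg2 (0.46) did not pass, with adjusted p of 0.491, 0.201 and 0.104.

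The phagocyte oxidase makes superoxide in the phagosome. Of 20 genes for it and for leukocyte actin control, 15 were lower and 0 higher. Cybb, its catalytic subunit, had values of 5.73, 7.81 and 6.94 in HSPC and 9.87, 10.00 and 9.69 in HC and was 8.15-fold lower, while the cytosolic subunits Ncf1 and Ncf4 were 3.49-fold and 5.1-fold lower. Was (-0.07) and Dock2 (0.07), actin regulators of all blood cells, had adjusted p of 0.891 and 0.835. HSPC means of Was and Dock2, 8.04 and 8.60, stood well above the EC means of 5.76 and 4.39.

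Lysosomal genes differed by smaller amounts, and their count was sensitive to single arrays. Of 18 genes, 17 were lower with a median of -0.77, but only 11 were lower without HSPC replicate 3, 10 without HC replicate 1, 10 without HC replicate 2 and 7 without HC replicate 3. Cathepsin Z, Ctsz, was lower by -1.40 (SE 0.23, adjusted p = 0.00458) and cathepsin C, Ctsc, which activates granule proteases, by -1.33 (SE 0.25, adjusted p = 0.00744). Antigen presentation genes were lower at 12 of 17, with Cd74, the class II invariant chain, at 3.94, 5.09 and 4.64 in HSPC and 6.58, 7.12 and 6.33 in HC. The immunoproteasome subunits Psmb8 and Psmb9 were 2.41-fold and 2.4-fold lower, and were the 2 called among 39 genes counted by symbol as proteasome subunits. Psmb10, also of the immunoproteasome, had a difference of -0.69 and did not pass (adjusted p = 0.0655). Class II genes themselves, H2-Ab1 (5.04) and H2-Eb1 (5.12), were near background in HC.

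Of 26 chemokines and chemokine receptors, 12 were lower in HSPC and 0 higher, and 7 were lower without HC replicate 1. Ccr1 was at 3.63, 4.69 and 4.40 in HSPC and 6.91, 7.39 and 7.23 in HC, at least 5.61-fold lower. Ccr2, a chemokine receptor of monocytes, was at least 2.76-fold lower (adjusted p = 2.31e-06), with an HSPC mean of 3.54, under background. The monocyte attractant Ccl12 and the interferon-induced Cxcl10 were 5.74-fold and 5.46-fold lower. Cxcr4, the receptor for the stem cell attractant Cxcl12, had means of 8.58 and 9.17 with an adjusted p of 0.051.

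Inflammatory cytokines and Toll-like receptors were lower at 14 of 25 genes, with a median of -1.19. Tlr1 and Tlr7 were 5.58-fold and 4.75-fold lower, and Il6 was at least 3.07-fold lower, at background in HSPC (3.08, 3.23 and 3.00) but not in HC (6.93, 6.55 and 5.44). The 1 gene higher in HSPC was Irak3, an inhibitor of Toll-like receptor signalling, by 0.79 (SE 0.17, adjusted p = 0.0165), with an adjusted p of 0.0537 and 0.0643 with HC replicates 2 and 3 left out in turn. Il1b (-0.31) and Tnf (-1.20) varied widely between arrays and had adjusted p of 0.703 and 0.148.

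General white cell genes gave a mixed picture. Of 20 pan-leukocyte genes, 10 were lower, with a median of -0.84, and 1 was higher. Cd52, a small glycoprotein of mature white cells, had values of 7.35, 9.46 and 8.77 in HSPC and 10.80, 11.17 and 10.86 in HC, and was lower by -2.42 (SE 0.43, adjusted p = 0.00653). Lsp1, an actin-binding protein of leukocytes, was 2.59-fold lower. Spn, which encodes CD43, a sialomucin found on early blood progenitors, was the exception, with values of 7.92, 7.37 and 7.13 in HSPC and 6.54, 6.54 and 6.54 in HC (difference 0.93 (SE 0.19, adjusted p = 0.0113)). Ikzf1 (8.84 and 9.02) and Cd44 (7.69 and 7.59) had HSPC and HC means that did not pass the test, both above the EC means of 5.07 and 4.97.

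**Figure D2:**
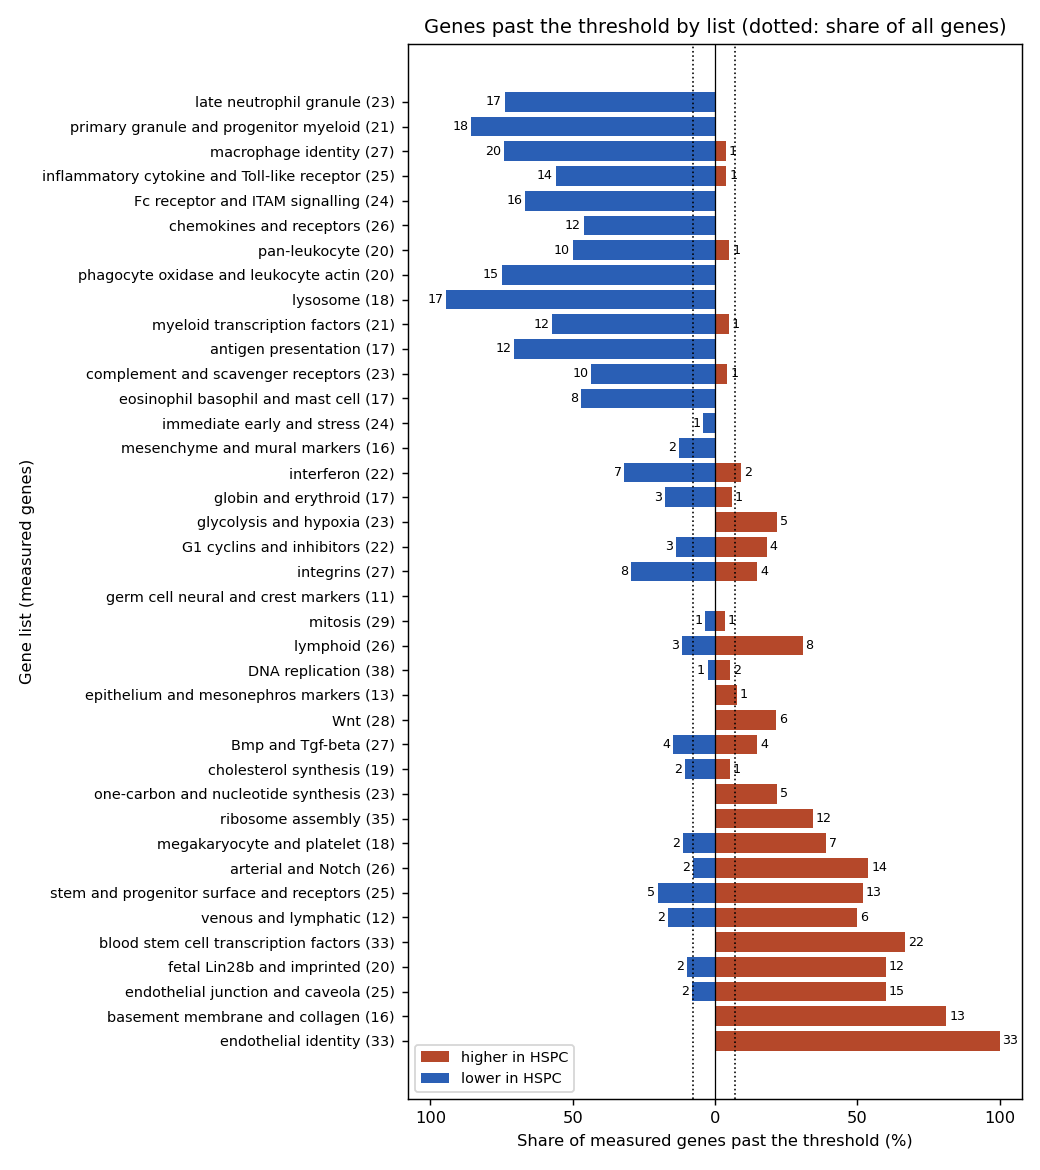
Share of the measured genes of each list past the threshold in HSPC against HC, with genes higher in HSPC to the right and lower to the left; numbers at the bars are gene counts and dotted lines mark the shares of all genes, 7.01% and 7.61%. Granule, macrophage and lysosome lists extend to the left, vessel lists and stem cell transcription factors to the right.

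On the other side stood the vessel genes. All 33 measured genes of endothelial identity were higher in HSPC, with differences of 0.87 to 4.68 and a median of 2.87. Emcn, a sialomucin of the endothelial surface, had values of 10.56, 8.60 and 9.87 in HSPC, 6.53, 6.00 and 4.45 in HC and 11.70, 11.504 and 11.42 in EC, so that HSPC lay between the others. Adgrl4, an adhesion receptor, had HSPC values of 10.11, 10.10 and 10.08, near its EC mean of 9.77, and was 17-fold higher than in HC (adjusted p = 5.97e-05). The angiopoietin receptor Tek was at least 13.3-fold higher, its relative Tie1 11.1-fold higher, and Klhl4 was at least 10.3-fold higher. Erg, an ETS factor used by both endothelium and blood stem cells, was at 9.67, 9.27 and 9.29 in HSPC and 6.46, 5.97 and 6.14 in HC (difference 3.22 (SE 0.14, adjusted p = 6.73e-06)), with an EC mean of 9.52. Cdh5, the sort gene, is 1 of the 33.

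Of 26 arterial and Notch pathway genes, 14 were higher and 2 lower, with a median of 0.72. The arterial connexins Gja5 and Gja4 were 13.7-fold and 7.34-fold higher, with Gja5 at 9.90, 8.21 and 7.87 in HSPC and 5.76, 4.68 and 4.22 in HC, a wide spread on both sides without overlap. The ligand Efnb2 was higher by 2.35 (SE 0.45, adjusted p = 0.00903) and the growth factor Vegfc by 2.93 (SE 0.25, adjusted p = 0.000192). Notch2 ran the other way, at 6.35, 6.65 and 6.40 in HSPC and 7.82, 7.91 and 7.78 in HC (2.59-fold lower, adjusted p = 0.000106), as did Rbpj, the DNA-binding partner of all Notch receptors, by -0.58. Notch1, the receptor required for blood stem cells in the aorta, had a difference of 0.50 with an adjusted p of 0.0648.

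Venous and lymphatic genes were higher at 6 of 12 and lower at 2. The apelin receptor Aplnr was at 10.32, 8.04 and 9.72 in HSPC and 6.83, 6.55 and 6.08 in HC, 7.3-fold higher, and Ephb4, the venous partner of Efnb2, was 4.25-fold higher. Stab1, shared by sinusoidal endothelium and macrophages, was 2.73-fold lower. Of 16 basement membrane genes 13 were higher and 0 lower, led by fibronectin, Fn1 (6.43-fold), and perlecan, Hspg2 (4.81-fold). Of 25 junction and caveola genes 15 were higher, among them the tight junction scaffold Tjp1, by 3.41 (SE 0.32, adjusted p = 0.000328). Lower members were Ehd4, a membrane-shaping ATPase (-1.03), and Pacsin2 (-0.57), whose adjusted p was 0.0515 with HC replicate 3 left out.

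**Figure D3:**
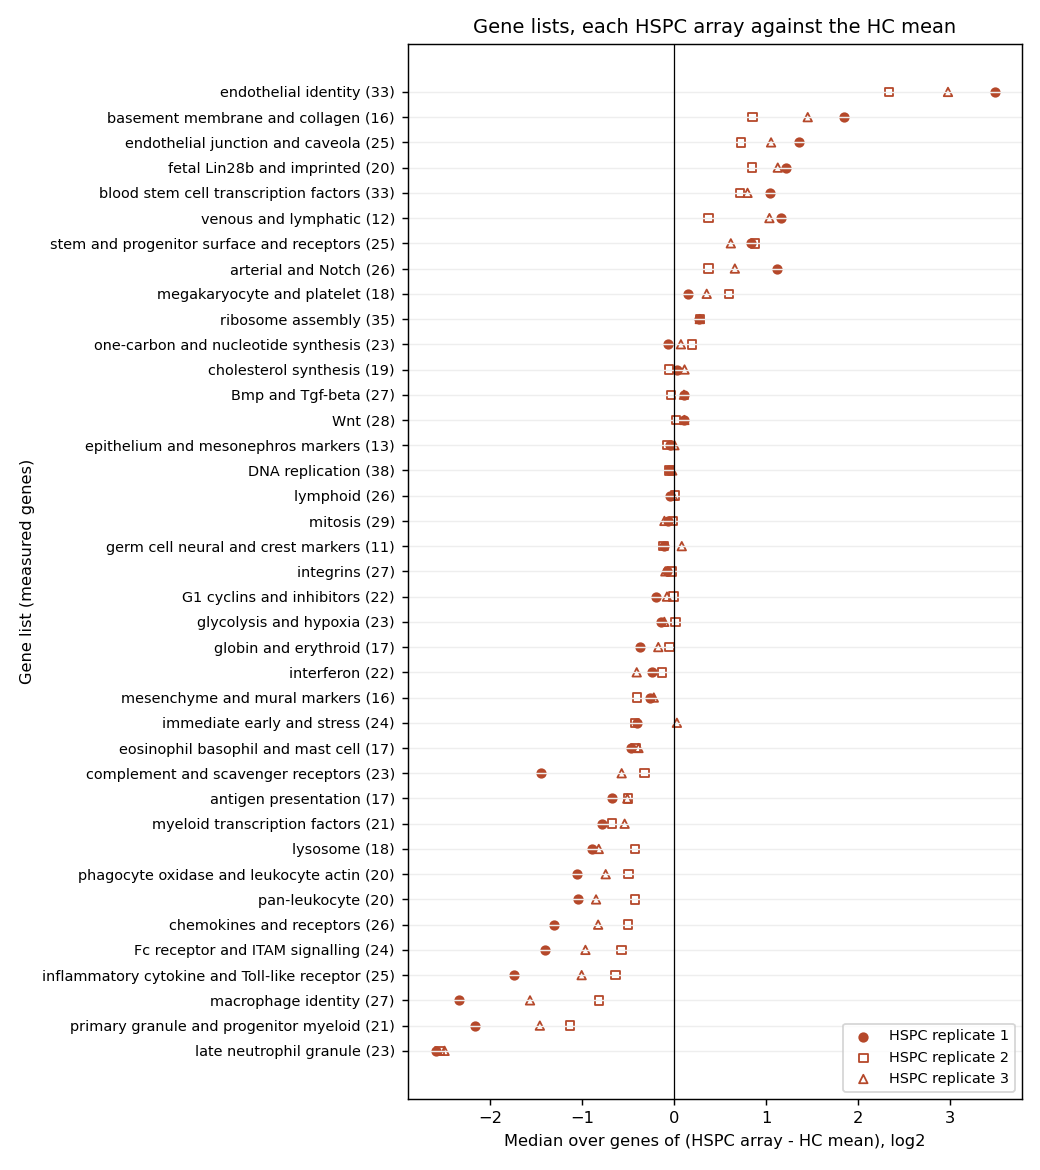
Median over the genes of each list of the difference between an HSPC array and the HC mean (log2), for HSPC replicates 1 (filled circles), 2 (squares) and 3 (triangles). Replicate 1 lies farthest from 0 for endothelial identity (3.49) and macrophage identity (-2.34), while for late neutrophil granule genes, 12 of 23 of which were at background in HSPC, the arrays lie at -2.60, -2.56 and -2.50.

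Of 33 transcription factors of blood stem cells 22 were higher in HSPC and 0 lower, with a median of 0.89. Some of them, such as Erg, also serve endothelium. For 6 of the 22 the EC mean lay above the HSPC mean, and the mean level of the list was 7.40, 7.27 and 7.36 on the EC arrays, above the 6.94, 6.86 and 6.82 of HC and below the 8.15, 7.89 and 7.97 of HSPC. Hlf, a PAR bZIP factor that marks blood stem cells, had values of 9.68, 9.62 and 9.81 in HSPC, 5.87, 5.75 and 5.53 in HC and 5.25, 5.03 and 5.66 in EC. It was 15.9-fold higher than in HC (difference 3.99 (SE 0.16, adjusted p = 3.98e-06)), with the 3 HSPC arrays close to each other and every HC and EC array far below them. Mecom, which encodes Evi1, stood at 8.43, 7.71 and 7.90 in HSPC and 4.91, 4.68 and 4.22 in HC, but at 8.22, 7.72 and 8.18 in EC, like HSPC. Zfp521, a zinc finger co-regulator, was higher by 2.53 (SE 0.31, adjusted p = 0.000975), with means of 7.72 in HSPC and 8.71 in EC.

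Several factors that start blood formation did not pass the test between HSPC and HC. Runx1, which is needed for the endothelial-to-blood transition, had values of 9.67, 9.88 and 10.03 in HSPC and 9.99, 9.80 and 9.93 in HC, with overlapping arrays and a difference of -0.04 (SE 0.16, adjusted p = 0.902), against 5.86 in EC. Fli1 (0.07), Lyl1 (-0.06) and Myc (-0.04) also did not pass, with adjusted p of 0.732, 0.818 and 0.913. Hhex had a difference of 0.39 and Runx3 of -0.74, with adjusted p of 0.097 and 0.098.

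Myeloid transcription factors showed the reverse, with 12 of 21 lower and 1 higher. Beside Cebpe, Irf8, a monocyte and dendritic cell factor, was at 6.82, 8.01 and 7.25 in HSPC and 8.69, 8.75 and 8.88 in HC (difference -1.42 (SE 0.26, adjusted p = 0.00741)), and Bcl6 was 2.52-fold lower. The exception was Nfe2, a factor of the megakaryocyte and erythroid lines, higher by 0.91 (SE 0.16, adjusted p = 0.00687). Klf4 (-0.49) and Stat3 (0.09) had adjusted p of 0.277 and 0.584.

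**Figure D4:**
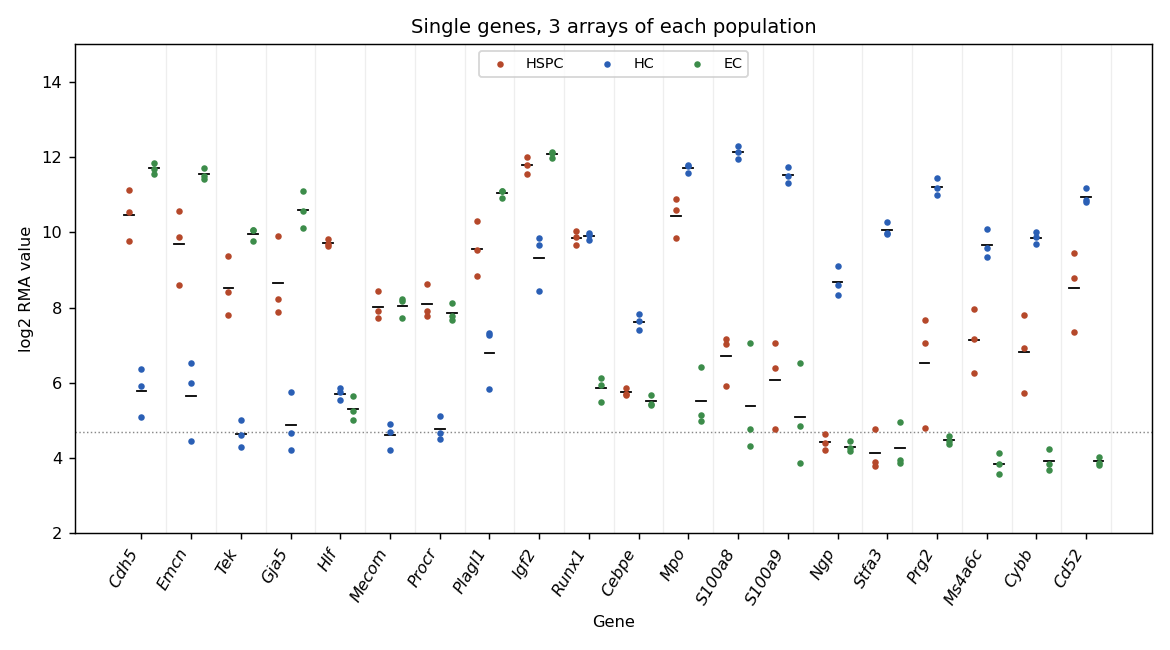
Log2 values of single genes on the 3 HSPC, 3 HC and 3 EC arrays, with bars at the group means and a dotted line at the background level of 4.69. Vessel genes at the left are high in EC and HSPC, Hlf is high in HSPC alone of the 3 groups plotted, and the granule genes S100a8, S100a9, Ngp, Stfa3 and Prg2 are high in HC.

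Lymphoid genes were mixed. Of 26, 8 were higher and 3 lower, with a median of -0.06. Those higher were mostly transcription factors: Bcl11a, a regulator of stem cells and the fetal globin switch, at 9.51, 9.20 and 9.44 in HSPC and 7.81, 7.84 and 7.66 in HC (difference 1.62 (SE 0.10, adjusted p = 4.31e-05)), Ikzf2 by 1.62 (SE 0.12, adjusted p = 0.000126), and Sox4 by 1.20 (SE 0.20, adjusted p = 0.00432). The 3 HC arrays of Ikzf2 hold the same value, 7.28, and show no spread of their own. The lineage genes Rag1 (3.90 and 3.95), Pax5 (4.57 and 4.76) and Dntt (3.32 and 3.47) were at or near background in HSPC and HC. Il7r, the interleukin 7 receptor, was at least 1.26-fold lower, with an HC mean of 5.03, just above background. Cd79b was 2.35-fold lower.

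Surface proteins and cytokine receptors of stem and progenitor cells were higher at 13 of 25 genes and lower at 5. Procr, the endothelial protein C receptor used to isolate blood stem cells, was at 8.64, 7.77 and 7.90 in HSPC and 5.11, 4.68 and 4.50 in HC, 10.1-fold higher (adjusted p = 9.99e-05), and at 7.85 on average in EC. Adgrg1, known as Gpr56, was at 10.72, 10.62 and 10.66 in HSPC, 8.14, 8.08 and 7.87 in HC and 7.10, 6.52 and 6.88 in EC, above both other populations on every array. Its difference from HC was 2.64 (SE 0.14, adjusted p = 2.04e-05). Itgb3, the beta chain of the platelet fibrinogen receptor, was 2.86-fold higher, but its partner Itga2b, which marks the first blood cells to form, had a difference of 0.20 (adjusted p = 0.618).

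The lower members of the list were receptors for myeloid and inflammatory signals: Csf2rb and Csf1r as above, Il6ra by -1.45 (SE 0.18, adjusted p = 0.00111), and Ifngr1 by -0.83 (SE 0.09, adjusted p = 0.000633). The number lower was 3 rather than 5 without HC replicate 3. Cd48, which blood stem cells lack and most other blood progenitors carry, had values of 6.07, 7.61 and 6.80 in HSPC and 7.88, 8.35 and 7.64 in HC, a difference of -1.13 with an adjusted p of 0.0583. Slamf1 was at background in both, with means of 3.83 and 3.80.

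Of 18 megakaryocyte and platelet genes, 7 were higher and 2 lower. Those with the largest differences, Mmrn1 (at least 8.16-fold higher) and Vwf (9.36-fold higher), are shared with endothelium, with EC means of 8.86 and 9.41. Thbs1, a platelet and macrophage adhesion protein, was 3-fold lower. The platelet genes Gp5 (0.57), Treml1 (0.10) and Ppbp (0.50) did not pass.

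Of 17 globin and erythroid genes, 1 was higher and 3 lower. The embryonic globin Hbb-y had means of 11.85 in HSPC, 11.90 in HC and 12.01 in EC, and Hba-x 11.71, 11.85 and 11.73. Levels this high in all 3 populations sat beside erythroid membrane genes near background, such as Epb42 (4.43, 4.47 and 4.66), and the source of the globin RNA was not tested. The carbonic anhydrases moved in opposite directions: Car2 was at 8.35, 8.29 and 7.93 in HSPC and 6.56, 6.71 and 5.59 in HC (3.73-fold higher, adjusted p = 0.011), while Car1 was at least 2.92-fold lower. Epor, the erythropoietin receptor, was lower by -0.62 (SE 0.10, adjusted p = 0.00317).

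Imprinted and fetal growth genes were higher at 12 of 20 and lower at 2, with a median of 1.02. Imprinted genes are read from 1 parental copy, and many control growth before birth. Igf2, the fetal growth factor, had values of 12.004, 11.54 and 11.79 in HSPC, 9.67, 9.84 and 8.44 in HC and 12.14, 11.97 and 12.10 in EC. H19, the non-coding RNA gene next to it, had values of 12.58, 12.05 and 12.20, 10.36, 10.16 and 9.36 and 12.62, 12.42 and 12.59. HSPC arrays of both genes lay above every HC array and near the EC arrays, and the differences from HC were 2.46 (SE 0.32, adjusted p = 0.00135) and 2.32 (SE 0.24, adjusted p = 0.000519). Plagl1, a zinc finger factor that acts on several imprinted genes, was 6.75-fold higher and Cdkn1c, the imprinted cell cycle inhibitor p57, 2.86-fold higher. For 11 of the 12 higher genes the EC mean lay above the HSPC mean, as for Plagl1 (11.03 in EC and 9.56 in HSPC) and Cdkn1c (9.26 and 8.74).

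The 2 lower genes of the list were fetal RNA-binding genes, Igf2bp3 by -0.48 (SE 0.06, adjusted p = 0.00115) and Lin28a by -0.44 (SE 0.12, adjusted p = 0.0344), the latter with an adjusted p of 0.106, 0.0775 and 0.0553 with HSPC replicates 1, 2 and 3 left out in turn and 0.0674 and 0.107 with HC replicates 2 and 3 left out in turn. Lin28b had a difference of 0.11 with an adjusted p of 0.647, and Igf2bp1 of 0.35 with 0.0734. The imprinted genes Dlk1 (0.83), Peg3 (0.32) and Nnat (0.05) did not pass.

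Hox genes, which carry positional identity along the body and act in blood progenitors, were counted over all 4 clusters. Of 38 measured, 12 were higher and 1 lower (34.2% together, against 14.6% of all genes), and 11 were at background in both populations. Hoxa9, a driver of progenitor growth, had values of 8.26, 7.85 and 7.69 in HSPC, 6.12, 5.83 and 5.88 in HC and 7.58, 7.58 and 7.58 in EC, and was 3.96-fold higher than in HC (difference 1.99 (SE 0.14, adjusted p = 8.6e-05)). Hoxa5 was at 6.89, 6.39 and 6.45 in HSPC and 4.97, 4.42 and 4.55 in HC, at least 3.47-fold higher (adjusted p = 0.0003). The 3 HSPC arrays of both genes stood above the HC arrays. For 9 of the 12 higher Hox genes the EC mean lay above the HSPC mean, as for Hoxa5 (6.90 in EC and 6.58 in HSPC), Hoxb5 (7.64 and 6.84) and Hoxb9 (7.42 and 6.59). Hoxa6, Hoxa7 and Hoxa9 were the 3 others. The mean level of the 38 genes was 5.54, 5.63 and 5.59 on the EC arrays, 5.36, 5.16 and 5.16 on the HSPC arrays and 4.96, 4.90 and 4.90 on the HC arrays.

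In the Hoxa cluster the higher genes were Hoxa3 (at least 1.16-fold, with HC at background), Hoxa4 (0.64), Hoxa5, Hoxa6 (1.07), Hoxa7 (0.47), Hoxa9 and Hoxa10 (0.46). Hoxa11 (-0.03) did not pass, nor did Hoxa2 and Hoxa13, which were at background in both populations. In the Hoxb cluster Hoxb5 (1.24) and Hoxb9 (0.98) were higher, as were Hoxb6 (0.96) and Hoxb8 (0.58). Hoxb4, often used to expand blood stem cells, had a difference of 0.50 with an adjusted p of 0.198. In the Hoxc and Hoxd clusters Hoxd4 was at least 1.2-fold higher, with HC at background, and Hoxc8 at least 1.02-fold lower, with HSPC at background and HC just above it. The calls of Hoxb6, Hoxb8, Hoxd4 and Hoxc8 were fragile. Adjusted p was 0.0522 with HSPC replicate 1 left out and 0.0522 with HC replicate 1 left out for Hoxb8. For Hoxb6 it was 0.1 and 0.0528 with HSPC replicates 1 and 3 left out in turn, 0.0586, 0.0502 and 0.104 with HC replicates 1, 2 and 3 left out in turn and 0.062, 0.0578 and 0.058 with EC replicates 1, 2 and 3 left out in turn. For Hoxd4 it was 0.0716, 0.0524 and 0.0654 with HSPC replicates 1, 2 and 3 left out in turn and 0.0856 and 0.0842 with HC replicates 1 and 2 left out in turn, and for Hoxc8 0.144, 0.0745 and 0.084 with HSPC replicates 1, 2 and 3 left out in turn, 0.0832 and 0.109 with HC replicates 1 and 3 left out in turn and 0.0717, 0.0674 and 0.0682 with EC replicates 1, 2 and 3 left out in turn.

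**Figure D5:**
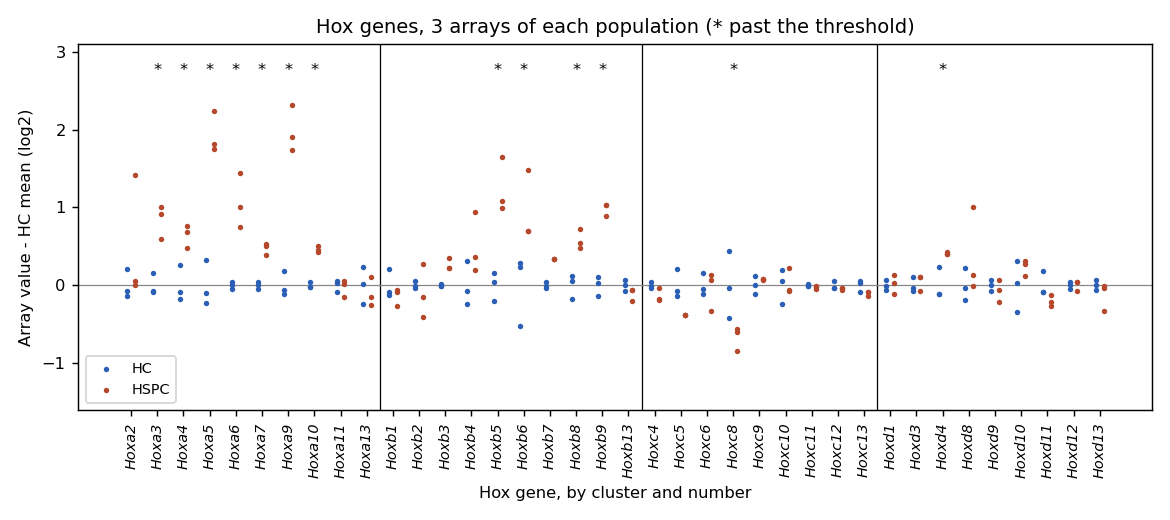
Difference of each HC and HSPC array from the HC mean (log2) for 38 Hox genes, ordered by cluster and number, with an asterisk over genes past the threshold. The HSPC arrays of Hoxa5 and Hoxa9 lie far above the HC arrays, and most Hoxc and Hoxd genes lie near 0.

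Other transcription factor families had more higher than lower members. Of 350 genes named Zfp, most of which encode C2H2 zinc finger proteins, 46 were higher and 7 lower, with a median of 0.12. Together this was 15.1%, against 14.6% of all genes. The number higher was 28 without HSPC replicate 1, and the number lower was 4 without HC replicate 2. Beside Zfp521 the larger differences included those of Zfp711 (1.96), Zfp827 (1.37) and Zfp423 (1.26), and Zfp507 was at least 3.18-fold higher, with HC at background. Zfp57, which keeps the methylation of imprinted genes in the embryo, had values of 7.41, 6.72 and 7.19 in HSPC and 6.00, 5.95 and 5.68 in HC (difference 1.23 (SE 0.19, adjusted p = 0.00343)). For 24 of the 46 higher genes the EC mean lay above the HSPC mean, and for 22 it did not. The 24 included Zfp521, Zfp711, Zfp827, Zfp507, Zfp423 (8.88 in EC and 7.29 in HSPC) and Zfp57 (8.50 and 7.11). The lower genes included Zfp36l1, an RNA-binding protein that shortens the life of cytokine mRNAs, by -1.03 (SE 0.10, adjusted p = 0.000315).

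Of 21 Sox factors, 6 were higher and 0 lower. The vessel factors of the F group were first: Sox7 had values of 8.01, 6.50 and 7.51 in HSPC and 4.35, 4.81 and 4.44 in HC (at least 6.1-fold higher), Sox18 was 5.94-fold higher, and Sox17, which acts in haemogenic endothelium, at least 3.62-fold higher. Their EC means of 9.19, 10.09 and 8.03 lay above the HSPC means of 7.34, 8.49 and 6.55. Sox4, Sox12 (0.98) and Sox13 (0.93) made up the rest.

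Membrane protein families were divided. Of 26 adhesion G protein-coupled receptors, 7 were higher and 1 lower, the lower one being the macrophage marker Adgre1, by -1.75 (SE 0.35, adjusted p = 0.0109). Of 19 tetraspanins 7 were higher, with Tspan18 at 9.06, 7.55 and 8.29 in HSPC and 5.30, 5.32 and 4.97 in HC (8.59-fold higher) and Tspan6 7.91-fold higher, and Tspan31 (-0.52) was lower. Of 34 C-type lectins named Clec, 10 were lower and 2 higher. Clec5a, a DAP12-coupled myeloid receptor, was at least 4.42-fold lower and Clec7a, the beta-glucan receptor, 3.25-fold lower, while Clec14a, an endothelial lectin, was at least 5.69-fold higher. Of 70 protocadherins 6 were higher and 1 lower, 10% together against 14.6% of all genes, and 47 were at background in both populations. Pcdh7 was up by 1.97 (SE 0.18, adjusted p = 0.000314). Semaphorins and plexins had 5 higher and 5 lower of 29, with Plxnd1, the vessel plexin, 4.62-fold higher and Sema4a 3.58-fold lower, and only 2 were higher without HSPC replicate 1, HC replicate 1 or HC replicate 2. For all 5 higher semaphorins and plexins and all 6 higher protocadherins the EC mean lay above the HSPC mean.

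Among 59 Rab GTPases, switches of vesicle traffic, 10 were lower and 6 higher. Rab7b, of late endosomes, was at 4.17, 5.29 and 5.24 in HSPC and 7.39, 7.20 and 7.05 in HC, and was lower by -2.32 (SE 0.27, adjusted p = 0.000761). Rab38, of lysosome-related organelles, ran the other way, at 8.94, 8.23 and 8.15 in HSPC, 6.50, 5.93 and 5.82 in HC and 5.74, 5.22 and 5.54 in EC, 5.14-fold higher than in HC (adjusted p = 0.000536). All HSPC arrays of Rab38 lay above the arrays of both other populations. The number of lower Rab genes was 6 without HSPC replicate 1, 6 without HC replicate 2 and 5 without HC replicate 3. Of 367 solute carriers 43 were lower and 17 higher, 16.3% together against 14.6% of all genes, with 26 lower without HC replicate 3. Both populations were at background for 139 of the 367.

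Among integrins and their linkers, 8 of 27 were lower and 4 higher. The leukocyte chains Itgam and Itgb2 were lower as above, as was Itgb5 by -1.36 (SE 0.24, adjusted p = 0.00574). Fermt2, kindlin-2 of adherent cells, was 3.18-fold higher and the collagen receptor chain Itga2 2.5-fold higher. The talins differed in part: Tln2 was lower by -1.04 (SE 0.17, adjusted p = 0.00374), while Tln1, the main talin of blood cells, had a difference of -0.22 and an adjusted p of 0.131. The beta-1 chain Itgb1 had means of 10.06 and 10.06.

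Of 27 Bmp and Tgf-beta genes, which act in signals that shape the aorta, 4 were higher and 4 lower (29.6% together, against 14.6% of all genes), with 7 higher without HSPC replicate 2. The co-receptors Eng (2.41 (SE 0.18, adjusted p = 0.000111)) and Tgfbr3 (1.48 (SE 0.16, adjusted p = 0.000554)) and the target Id3 (0.83) were higher. For all 4 higher genes the EC mean lay above the HSPC mean, as for Id3 (10.27 in EC and 8.69 in HSPC). The ligand Bmp2 (-1.56 (SE 0.29, adjusted p = 0.00791)) and the receptor Bmpr1a (-1.42 (SE 0.23, adjusted p = 0.00433)) were lower. Bmp4, the ligand made beneath the aorta, had a difference of 0.79 with an adjusted p of 0.226, and Id1, its classic target, of 0.05 with 0.923.

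Of 28 Wnt genes 6 were higher and 0 lower, 21.4% together. The receptors Fzd4 and Fzd6 were higher by 1.93 (SE 0.22, adjusted p = 0.000754) and 1.55 (SE 0.17, adjusted p = 0.000577). Their EC means of 9.01 and 7.23 lay above the HSPC means of 7.09 and 6.44. For 5 of the 6 higher Wnt genes the EC mean lay above the HSPC mean. Sfrp2, a secreted modulator of Wnt signals, had values of 9.32, 8.95 and 8.98 in HSPC, 7.57, 6.95 and 6.55 in HC and 7.57, 7.57 and 7.02 in EC, and was 4.17-fold higher than in HC. The transcriptional targets Axin2 (0.00) and Lef1 (0.33) had adjusted p of 0.998 and 0.362.

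Few cell cycle genes passed the test. Of 38 DNA replication genes 2 were higher and 1 lower, below the 14.6% of all genes, and the median was -0.04. The helicase subunits Mcm2 to Mcm7 had differences between -0.04 and 0.09, and Mcm6 had means of 10.00 in HSPC and 9.96 in HC. Of 29 mitosis genes 1 was higher and 1 lower, with a median of -0.08. Mki67, the proliferation marker, had means of 9.59 ± 0.09 in HSPC and 9.78 ± 0.09 in HC (SD, n = 3), and Top2a 10.17 ± 0.17 and 10.06 ± 0.10.

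The controls of entry into the cycle varied more. Of 22 genes 4 were higher and 3 lower, with 2 higher without HSPC replicate 1 or HC replicate 3. Ccnd2, a D-type cyclin of blood cells, was higher by 0.76 (SE 0.13, adjusted p = 0.00525), and Cdkn1c was higher as above. The retinoblastoma gene Rb1 was at 7.11, 7.36 and 7.12 in HSPC and 8.18, 8.11 and 8.03 in HC, a difference of -0.91 (SE 0.09, adjusted p = 0.000403), and E2f8 was lower by -0.39 (SE 0.08, adjusted p = 0.0121). Cdkn1a, the p53 target p21, had a difference of -0.54 with an adjusted p of 0.35.

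Ribosome assembly genes were slightly higher in HSPC. All 35 measured had positive differences, with a median of 0.27, and 12 passed the threshold. That number was 7 without HSPC replicate 1 and 6 without HSPC replicate 3, HC replicate 1 or HC replicate 3. The differences were small in size: Nop56, a core protein of small nucleolar particles, had 0.48 (SE 0.09, adjusted p = 0.00792), Gnl3, nucleostemin, 0.47 (SE 0.08, adjusted p = 0.0059), and Wdr75 0.45 (SE 0.07, adjusted p = 0.00401). The ribosome's own proteins did not share this, with 0 of 42 genes named for cytosolic subunits higher, 1 lower, and a median of 0.03. The 1 lower was Rpl39l, at background in both populations (3.65 in HSPC and 4.61 in HC). After repeated quantile normalization 3 of the 42 were higher.

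Metabolic genes passed at shares near or somewhat above the 14.6% of all genes, complex I aside. Of 23 glycolysis and hypoxia genes 5 were higher and 0 lower (21.7%), but 6 were lower without HSPC replicate 2, and the median was -0.14. Epas1, the hypoxia-inducible factor 2 alpha of endothelium, was 5.98-fold higher, Egln3, the oxygen-sensing prolyl hydroxylase, was at 7.79, 8.14 and 7.94 in HSPC and 6.35, 6.44 and 6.40 in HC (difference 1.56 (SE 0.11, adjusted p = 9.5e-05)), and Hk1 was higher by 0.73 (SE 0.09, adjusted p = 0.00107). The glycolytic enzymes Aldoa (-0.14), Ldha (-0.34) and Pkm (-0.11) did not pass. In one-carbon and nucleotide synthesis 5 of 23 were higher (21.7%), led by Cad, the first enzyme complex of pyrimidine synthesis (0.53 (SE 0.09, adjusted p = 0.00617)), and 2 without HSPC replicate 3 or HC replicate 3. Of 19 genes of cholesterol synthesis, its regulation and efflux, 1 was higher, the regulator Srebf2 (0.60 (SE 0.10, adjusted p = 0.00522)). Lower were 2, the synthesis gene Ebp (-1.02) and the efflux pump Abca1 (-1.16), which made 15.8% together, and 3 were higher without HSPC replicate 2. Of 44 genes with Nduf symbols, complex I subunits and assembly factors among them, 3 were lower (6.82%), 1 without HSPC replicate 1 and 0 without HC replicate 2.

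Interferon genes, which have been linked to blood stem cell formation in the AGM, were lower at 7 of 22 and higher at 2. The interferon receptors Ifngr2 (-1.19 (SE 0.15, adjusted p = 0.00114)), Ifngr1 and Ifnar2 (-0.89 (SE 0.11, adjusted p = 0.00129)) were all lower. The membrane proteins Ifitm2 (0.60 (SE 0.11, adjusted p = 0.00801)) and Ifitm3 (0.64, adjusted p = 0.0146, and 0.0535 with HSPC replicate 1 left out) were higher, against means of 9.99 and 10.53 in HC. The classical targets Ifit1 (0.04, at background in both populations), Irf7 (-0.45) and Oasl2 (0.00) did not pass. The number lower was 4 without HSPC replicate 3, HC replicate 1, HC replicate 3, EC replicate 1 or EC replicate 2.

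Within the interferon-inducible p200 family, sensors of DNA, 7 of 12 were lower and 0 higher, and 4 were lower without HC replicate 3. Ifi203 was at 3.95, 5.44 and 4.75 in HSPC and 7.35, 7.40 and 7.07 in HC, Ifi211 at 5.72, 6.64 and 5.57 and 8.09, 8.24 and 8.51, and Ifi204 at 4.46, 5.76 and 4.76 and 7.18, 7.44 and 7.19. Their arrays did not overlap, and the differences were -2.56, -2.30 and -2.27 (adjusted p = 0.00142, 0.000588 and 0.00116). These genes are tandem copies that can share probe sequence.

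Immediate early and stress genes, which can change while tissue is taken apart, had 1 of 24 lower (3 without HSPC replicate 3) and 0 higher, with a median of -0.40. With all arrays the 1 was Fos, at 8.20, 9.25 and 9.33 in HSPC and 10.16, 10.29 and 9.91 in HC, with a difference of -1.19 and an adjusted p of 0.0476, and of 0.114 and 0.0527 with HSPC replicates 1 and 3 left out in turn, 0.123, 0.133 and 0.0884 with HC replicates 1, 2 and 3 left out in turn and 0.0728 with EC replicate 2 left out. Jun (-0.09), Egr1 (-0.38) and Hspa1a (-0.42) had adjusted p of 0.788, 0.602 and 0.418.

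MicroRNA genes were read by probe sets against the precursor transcript, not the mature RNA. Of 303 measured, 217 were at background in both populations, and 6 passed the threshold (1.98%, against 14.6% of all genes), 5 lower and 1 higher. The number lower was 2 without HSPC replicate 1. Of the lower ones, 3 genes, Mir23a, Mir27a and Mir24-2, lie next to each other on the plus strand of chromosome 8 in GRCm38.p6. They are cut from 1 primary transcript, and microRNAs of this cluster are known from myeloid cells and endothelium. Their main mature forms, from RefSeq, are shown with the seed, bases 2 to 8, in capitals.
mmu-miR-23a-3p: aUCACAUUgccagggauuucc
mmu-miR-27a-3p: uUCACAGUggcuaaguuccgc
mmu-miR-24-3p: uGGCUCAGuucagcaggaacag
The 3 seeds differ, so the mature forms are counted as separate seed families. Mature miR-23a-3p lies at chr8:84208563-84208583, miR-27a-3p at chr8:84208727-84208747 and miR-24-3p at chr8:84208875-84208896.

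The 3 genes of the cluster were lower in HSPC on each array. Mir23a had values of 5.91, 5.62 and 6.02 in HSPC and 6.69, 6.74 and 6.70 in HC, a difference of -0.86 (SE 0.12, adjusted p = 0.00174). Mir27a had values of 5.23, 5.65 and 5.85 and 7.79, 6.93 and 6.26, with a difference of -1.42 and an adjusted p of 0.0212, and of 0.074 with HSPC replicate 1 left out and 0.0581 with HC replicate 2 left out. Mir24-2 had values of 5.13, 5.26 and 5.62 and 6.75, 6.32 and 5.87, with a difference of -0.98 and an adjusted p of 0.0141, and of 0.0524 with HSPC replicate 1 left out. EC means of 5.63, 5.54 and 5.29 were close to those of HSPC. Since the 3 precursors share a transcript, they are not independent observations. Mir221 was lower by -0.57 (adjusted p = 0.0032), at background in both populations.

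Markers of cells that neither gate should hold were counted last. Of 16 mesenchyme and mural genes 0 were higher and 2 lower (12.5%, against 14.6% of all genes), Pdgfrb (-0.45) and Prrx1 (-0.65). In all 15 of the 16 had a negative difference, with a median of -0.32. The number lower was 0 without HSPC replicate 2 or HC replicate 1 and 1 without HSPC replicate 1, HSPC replicate 3 or HC replicate 2. Adjusted p of Pdgfrb was 0.111 and 0.0682 with HSPC replicates 1 and 2 left out in turn and 0.111, 0.067 and 0.0635 with HC replicates 1, 2 and 3 left out in turn. That of Prrx1 was 0.0518 and 0.0732 with HSPC replicates 2 and 3 left out in turn and 0.078 and 0.0777 with HC replicates 1 and 2 left out in turn. Of 13 epithelium and mesonephros genes 1 was higher, and of 11 germ cell, neural and crest genes 0 passed. Pdgfra had means of 5.11 in HSPC and 5.47 in HC, Col1a1 6.35 and 6.56, Epcam 4.66 and 4.57, and Ddx4 3.38 and 3.49. The mean level of the 16 mesenchyme and mural genes was 5.11, 4.95 and 5.11 on the HSPC arrays and 5.51, 5.31 and 5.20 on the HC arrays, and that of the 13 epithelium and mesonephros genes 5.20, 5.23 and 5.17 and 5.22, 5.09 and 5.10. The 1 higher gene was Krt18, a keratin of simple epithelia, with values of 8.62, 7.82 and 8.39 in HSPC, 6.37, 5.70 and 6.13 in HC and 6.75, 6.23 and 6.17 in EC. It was 4.62-fold higher in HSPC than in HC (difference 2.21 (SE 0.25, adjusted p = 0.000712)), whereas its usual partner Krt8 had means of 6.58 and 7.06 with an adjusted p of 0.25. Krt18 was the 1 keratin of 50 that passed.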

How the data were processed

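RNA of 9 sorted samples, 3 each of EC, HSPC and HC, was measured on Affymetrix mouse gene arrays. Per the labels' protocols, nanogram amounts of RNA were amplified with the Ovation Pico V2 kit, and both Mouse Gene 1.0 ST and 2.0 ST arrays are named without saying which sample went on which. The deposited table holds 1 log2 value per array for each probe set; RMA and Partek are named by the submitters' processing notes. The array description and genome build were not given in the sources used here. RMA sets all arrays on a shared scale and compresses differences of dim genes. The small number of arrays limits the precision.

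From these values, limma 3.58.1 in R 4.3.3 (lmFit, eBayes, two-sided) was fitted to all 9 arrays with a mean per group, leaving 6 residual degrees of freedom, to which eBayes added 2.75. It was also run on simulated data with independent noise for each gene. Those data hold neither the tied values nor the shared shifts between HSPC arrays described above, so that run does not vouch for the p-values here. With 3 arrays in each group, the smallest p of an exact permutation test is 0.1. Of 21115 probe sets, 710 with no symbol were left out, and no gene had more than 1 probe set. The 39 gene lists (890 of 951 entries measured, 832 distinct genes) and 24 symbol families were chosen with earlier results of these data known, and are described by counts and medians alone. Named genes were the 14 largest differences in each direction among called genes whose arrays did not overlap, the 4 largest list members in the main direction and 3 in the other, Cdh5 and Ptprc. Members of larger families, microRNA genes, the genes behind the printed promoters and list members that did not pass were chosen after their values were seen. Not every gene of the first rule is named. Promoters and mature microRNAs come from RefSeq (GRCm38.p6): 15803 tested genes had a promoter, using the first start listed, and 275 of 303 microRNA genes were in the table. Alternatives were the 6 HSPC and HC arrays alone, a replicate block, arrays centred on their medians, repeated quantile normalization, dim genes left out, eBayes with trend and robust, and each array left out in turn.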

Additional observations from a re-analysis of the deposited data

How the results depend on the processing

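No difference of the 178 genes first chosen to be named, Cdh5 and Ptprc aside, changed direction under any of the 15 alternatives. That was largely fixed in advance. These genes were chosen for passing the threshold, and arrays did not overlap at 2975 of the 2983 called genes. Leaving out 1 array could therefore rarely reverse a sign. Apart from leaving out an HSPC or HC array, only centring and repeated quantile normalization changed the mean difference. Of the 178 genes, 142 stayed past the threshold wherever they were tested. Called genes numbered 2335 with the 6 HSPC and HC arrays alone, 2982 with arrays centred on their medians, 3140 after repeated quantile normalization, 3091 of 12898 with dim genes left out and 2913 with trend and robust options. The share of calls higher in HSPC was 48.0% as deposited, 43.1% with centred arrays and 52.7% after quantile normalization. With 1 array left out, 2140 to 3075 genes were called, 1017 to 1500 of them higher and 1123 to 1575 lower. Without HC replicate 3, 29 of the 178 genes lost their call, the most of any array. A threshold of 0.01 left 705 genes higher and 777 lower, and a 2-fold minimum 452 and 479. With 1 array left out, Cdh5 differed by 4.33 to 5.03 and Ptprc by -1.18 to -0.92.

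The replicate numbers of the labels were not found to pair the samples. Deviations of same-numbered HSPC and HC arrays from their group means correlated at 0.068, -0.041 and -0.042, and HSPC replicates 2 and 3 correlated best with another number. The fit with a replicate block called 2801 genes, 1356 higher and 1445 lower, and 9 of the 178 genes lost their call. Array number and dim signal limit what can be seen: 110 called genes had both populations at background, and 210 the lower one. With 3 arrays a group no test for outlying arrays was made.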
